A study of Mus musculus with 40 samples.

Results

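The 29 genes described here lie on autosomes. For each of them, the reads that could be assigned to a parent were on average assigned almost wholly to a single parent. These genes were found in single cells of female mouse blastocysts that a C57BL/6J female had conceived by a Cast/EiJ male. The allelic ratio, which is the share of paternal reads among the reads that can be assigned to a parent, was used in each cell in which the gene's RPRT was above 4 (RPRT, the read count normalized to the retrotranscribed length of the transcript and to the depth of the cell). A gene was taken when it had such a ratio in at least 20 cells and its mean ratio was at or above 0.90 (paternal transcripts) or at or below 0.10 (maternal transcripts). A list of 10 known imprinted genes was left out by name. Of 11909 genes with a ratio, 11552 were autosomal and 4140 of these could be judged, and 17 genes with paternal and 12 with maternal transcripts were found.

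The 40 cells were 23 from embryos at E4.0 and 17 from embryos at E3.5 (embryonic days), from natural matings. The paper isolated the inner cell mass by immunosurgery, with short incubations of the blastocyst in antiserum and complement that kill the trophectoderm. It also added published E3.5 cells of trophectoderm and inner cell mass. From every cell, polyadenylated RNA was copied into cDNA starting at the 3′ end, and the cDNA was amplified. Every cell came from the same direction of the same cross, so that paternal always means Cast/EiJ and maternal always means C57BL/6J, and effects of the parent and of the strain cannot be told apart. GEO's labels name no embryo, and the embryo numbers in the study's supplement were not used here, so the cells of a stage were treated as 1 sample, values are given as ranges or as an SD over cells, and no test was made between stages.

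Total counts per cell ranged between 1019112 and 12689903 at E4.0, and between 2671531 and 12833051 at E3.5, with 4 cells under 4000000. Of the E3.5 cells, 6 had been deposited before. By their labels the cells carry no lineage name, and markers of primitive endoderm, epiblast and trophectoderm were used further on to group them.

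Most autosomal genes are transcribed from both parental copies. At imprinted genes, a mark set in the egg or the sperm keeps the copy of one parent silent, whichever strain it comes from. A difference in sequence between strains can also raise or lower one copy, or remove it from the reads that are counted. In a single cell, few molecules of a gene are caught, and either copy may be missed by chance. Genes copied into the genome through RNA (retrocopies and processed pseudogenes) can resemble their source so closely that a short read fits both places.

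Sequences of 4 members are shown because they bear on this last point. Each pair of lines gives 30 bases of a member and the stretch of another gene that is aligned with it, 5′ to 3′ on the transcribed strand, from GENCODE transcripts of the mouse build GRCm38. Within the coding part of each alignment, the window with the most differing bases, up to 4, was chosen. Capitals mark the bases that differ between both lines of a pair. The positions, in the order printed, are chr5:29538153-29538182 (+), chr9:78368070-78368099 (−), chr15:5118567-5118596 (+), chr5:115103268-115103297 (−), chr16:94367581-94367610 (−), chr6:75782622-75782651 (−), chr11:62552788-62552817 (+) and chr14:46084540-46084569 (+).
Gm6083: atgatggtAaccctcAtgacccgtaaagaC
Dppa5a: atgatggtGaccctcGtgacccgtaaagaT
Rpl37: acatggattccgtgagggaacaacGccgaa
Rpl37rt: acatggattccgtgagggaacaacAccgaa
Pigp: GttCcCgaatcttggttaaactccttaggC
Gm9001: AttTcGgaatcttggttaaactccttaggT
Ubb: aaGgagtcaaccctgcacctggtcctTcgC
Gm1821: aaAgagtcaaccctgcacctggtcctCcgT

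The windows differ at 3 bases between Gm6083 and Dppa5a, at 1 base between Rpl37 and Rpl37rt, at 4 bases between Pigp and Gm9001 and at 3 bases between Ubb and Gm1821. They are the reference sequence of C57BL/6J, and the Cast/EiJ sequence was not used here. Over the whole alignments the identity was 96.9%, 99.7%, 98.5% and 98.5% in the same order, so the windows overstate the difference.

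Genes past either limit were rare among those judged. The 17 genes with paternal transcripts made up 0.411% and the 12 with maternal transcripts 0.29% of the 4140 genes. The mean ratio of most genes was close to balance, with 1551 genes between 0.4 and 0.5 and 1519 between 0.5 and 0.6. The limits did not fall in a gap. On the paternal side, Tspan17 (0.901), Gm4922 (0.906) and Mtap (0.912) were just inside, and Cox7c (0.888) and Fkbp6 (0.880) just outside. On the maternal side, Zbed5 (0.0925), Gnpda1 (0.0915) and Ola1 (0.0858) were just inside, and Mep1b (0.108), AI662270 (0.115) and Gemin7 (0.125) just outside. These ratios chose the genes and are given as a description.

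**Figure D1:**
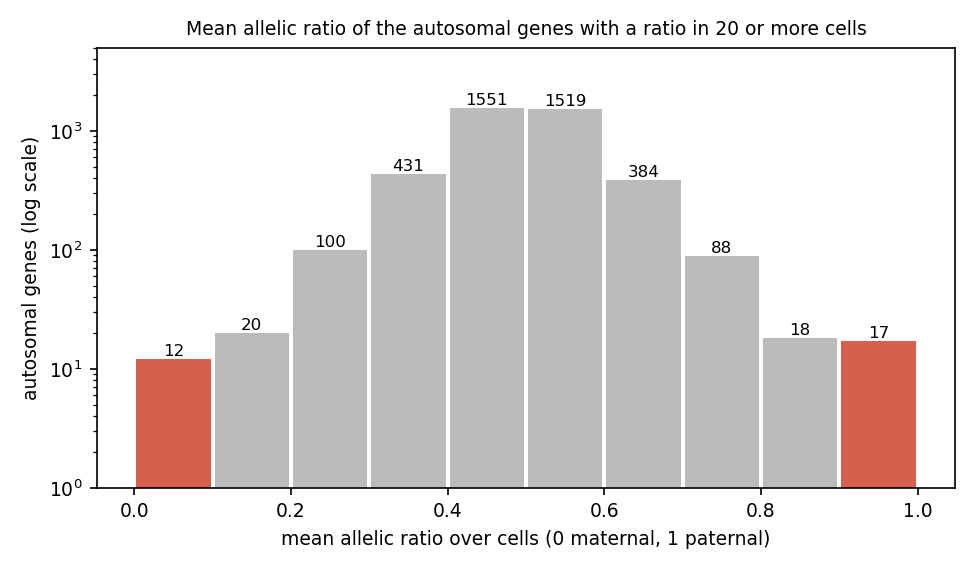
Number of autosomal genes (log scale) in each interval of 0.1 of the mean allelic ratio, among genes with a ratio in 20 or more cells; the outermost bars, in red, hold the 12 genes with maternal and the 17 with paternal transcripts. The bars next to them hold 20 and 18 genes.

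The ratios of single cells that made up these means are given next. Among the genes with paternal transcripts, 438 of 490 ratios of single cells were at or above 0.90 and 4 were at or below 0.10. Among the genes with maternal transcripts, 352 of 395 ratios were at or below 0.10 and 2 were at or above 0.90. Within a cell, the median ratio of the remaining autosomal genes lay between 0.474 and 0.527. The SD over cells had a median of 0.0497 for the paternal and 0.0484 for the maternal genes, against 0.318 for the 4111 remaining genes. A mean close to 0 or 1 leaves little room for spread, so this difference and the counts above follow from the rule. The evenness differed between members, and Gm4922 (9 of 24), Gnpda1 (12 of 33), Serinc3 (11 of 36) and Ola1 (10 of 35) had the most cells between the limits for their number.

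The level was not at an extreme in most members. Mean RPRT had a median of 28.2 for the paternal genes, of 52.3 for the maternal genes and of 34.3 for the remaining genes, and it ran between 7.89 (Gm4922) and 2839 (Rps3). Another 12 ratios came from cells in which the RPRT of the member did not pass 4, and the rule had not used them. Gm6756 had a ratio of 1 in all 5 such cells, Slc38a4 a ratio of 1 in its only cell, Serinc3 0.953 in its only cell and Gnpda1 0.0476 in its only cell. Gm4922 lay between 0.70 and 1 in 4 cells.

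**Figure D2:**
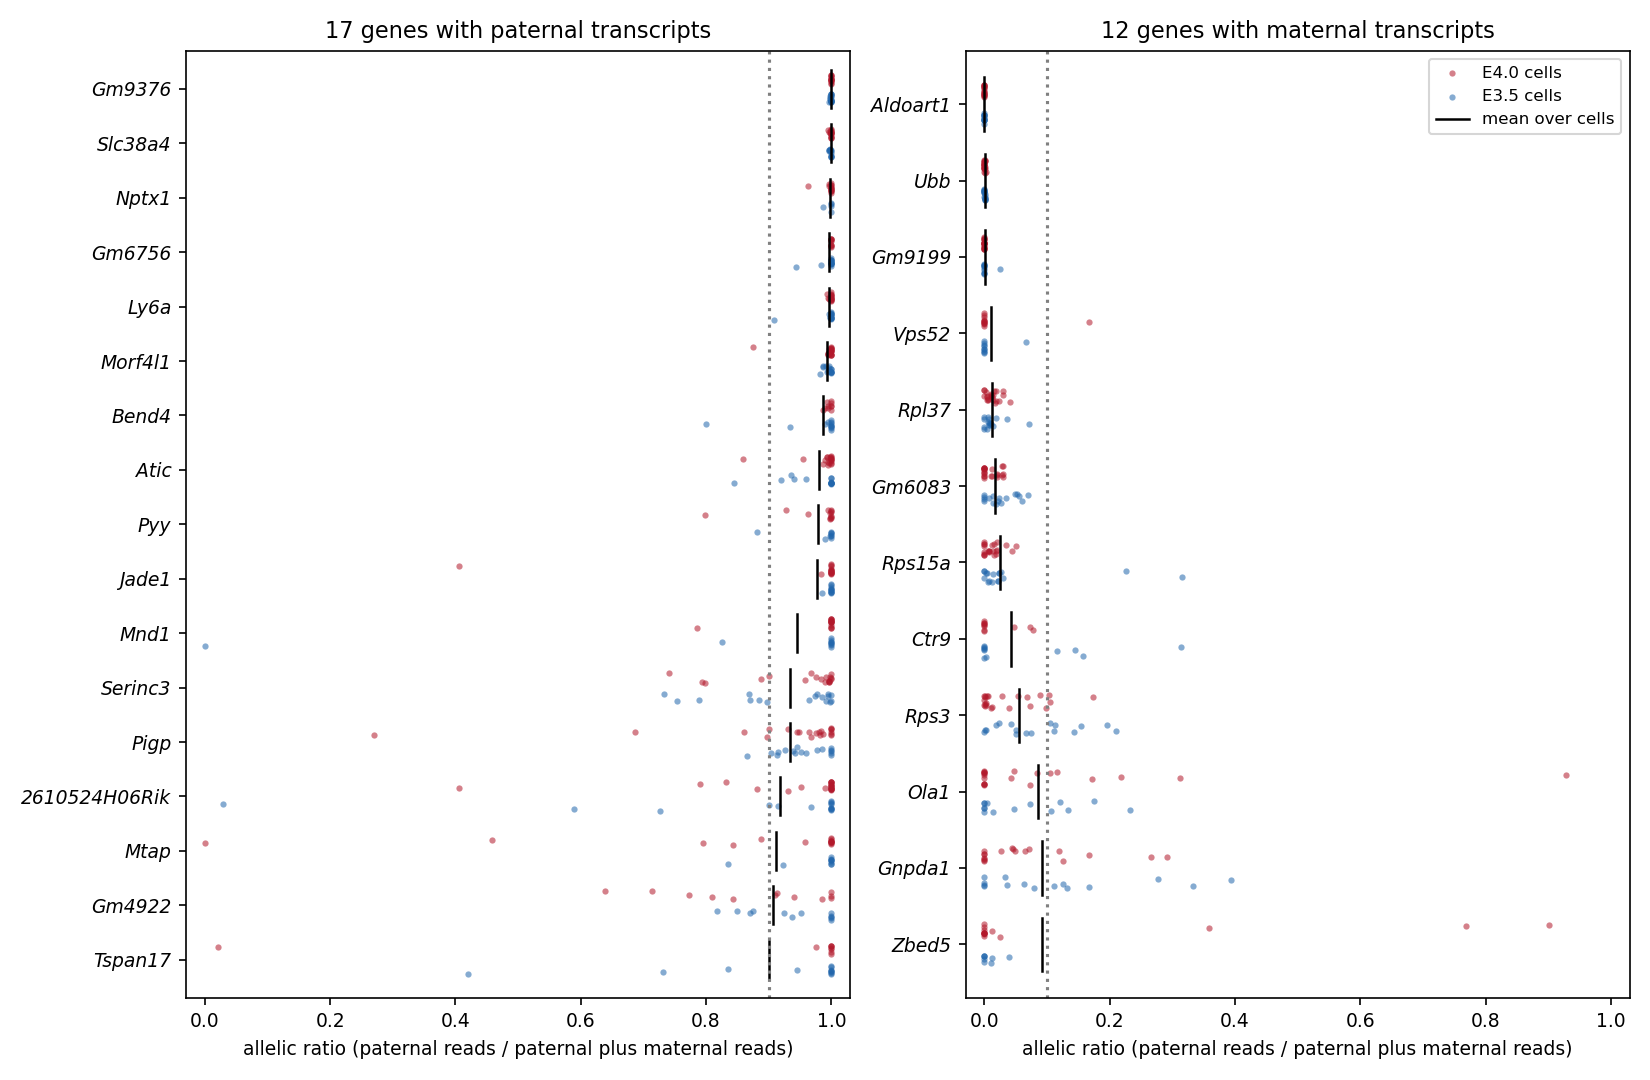
Allelic ratio (x axis, 0 maternal to 1 paternal) of each gene with paternal (left) and maternal (right) transcripts, with 1 point for each cell, E4.0 cells in red above E3.5 cells in blue; black ticks are means over cells and dotted lines the limits of 0.90 and 0.10. Aldoart1, Ubb and Gm9376 show next to no spread, while Mnd1, Mtap, 2610524H06Rik, Tspan17, Ola1 and Zbed5 each have a cell at the opposite end.

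Among the genes with paternal transcripts were 2 of the known imprinted genes that had not been left out by name, Slc38a4 and Jade1. Slc38a4 (chr15:96994820-97055956, GRCm38 as for all positions here) encodes an amino acid transporter that is expressed from the paternal copy in mouse. Its ratio had a lowest value of 0.995 and a median of 1 in 16 E4.0 cells, and a lowest value of 0.996 and a median of 1 in 13 E3.5 cells. Jade1 (chr3:41555731-41616864) encodes a PHD finger subunit of the HBO1 histone acetyltransferase complex and is known to be imprinted in the early mouse embryo. Its lowest value was 0.406 in 16 E4.0 cells, with the next lowest at 0.984 and the median at 1, and 0.985 in 12 E3.5 cells, with a median of 1. The E4.0 cell at 0.406 also had the highest RPRT of this gene (66.9), and it alone lay between the limits.

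Chromatin and meiosis were represented by Morf4l1, Bend4 and Mnd1. Morf4l1 (chr9:90091665-90114774) encodes MRG15, a chromodomain protein of histone acetyltransferase complexes. Its ratio was between 0.875 and 1 in 23 E4.0 cells and between 0.982 and 1 in 16 E3.5 cells. Bend4, which encodes a BEN domain protein, was between 0.987 and 1 in 10 E4.0 cells and between 0.80 and 1 in 13 E3.5 cells. Mnd1, whose product acts with Hop2 in meiotic recombination, was at 1 in 22 of 25 cells. Of the other 3 cells, an E4.0 cell was at 0.785, an E3.5 cell at 0.825 and another E3.5 cell at 0.

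A further group encodes secreted, surface and membrane proteins. Nptx1 (chr11:119538719-119547753), a neuronal pentraxin, was at 0.963 or above in 15 E4.0 cells and at 0.987 or above in 5 E3.5 cells. Ly6a (chr15:74994877-74998031), the surface antigen Sca-1 that is held by a lipid anchor, was at 0.992 or above in 16 E4.0 cells and at 0.908 or above in 16 E3.5 cells. Pyy, the gut hormone peptide YY, ranged between 0.798 and 1 with a median of 0.998 in 13 E4.0 cells, and between 0.881 and 1 with a median of 1 in 9 E3.5 cells. In these 3 genes no cell was below 0.798.

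Serinc3, Pigp and Tspan17 were less even. Serinc3, a membrane protein with many spans, had a ratio between 0.10 and 0.90 in 11 of 36 cells, with medians of 0.989 at E4.0 and 0.973 at E3.5 and a lowest value of 0.733. Pigp, part of the enzyme that starts the synthesis of lipid (GPI) anchors, ranged between 0.270 and 1 in 21 E4.0 cells and between 0.866 and 1 in 17 E3.5 cells. The tetraspanin Tspan17 had a median of 1 at both stages, but its lowest value was 0.0204 among 9 E4.0 cells and 0.420 among 12 E3.5 cells.

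Atic and Mtap encode enzymes of purine metabolism. Atic, which catalyses the last steps of purine synthesis, ranged between 0.858 and 1 in 19 E4.0 cells and between 0.844 and 1 in 15 E3.5 cells. Mtap, which recycles methylthioadenosine, had medians of 1 at both stages, with a lowest value of 0 in 16 E4.0 cells and of 0.835 in 10 E3.5 cells. For Mtap, 5 of 26 cells fell between 0.10 and 0.90 and 1 cell was wholly maternal.

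The last 4 paternal genes are known only by a predicted or clone name. Gm9376 (chr14:118266960-118267688) had a ratio of 1 in each of 13 E4.0 cells and was between 0.997 and 1 in 17 E3.5 cells. Gm6756, a processed pseudogene in GENCODE, had a ratio of 1 in 9 E4.0 cells and lay between 0.943 and 1 in 16 E3.5 cells. 2610524H06Rik had a median of 1 at both stages, with a lowest value of 0.406 in 23 E4.0 cells and of 0.0294 in 15 E3.5 cells. Gm4922 was the gene with the highest share of cells between the limits, 9 of 24, with a median of 0.912 at E4.0 and 0.945 at E3.5.

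The maternal genes included 3 of the cytoplasmic ribosome. Rpl37, Rps15a and Rps3 were measured in all 40 cells. Rpl37 was at or below 0.041 in E4.0 cells and at or below 0.0714 in E3.5 cells. Rps15a was at or below 0.05 in E4.0 cells and reached 0.315 in E3.5 cells, with medians of 0.00813 and 0.0144 at E4.0 and E3.5. Rps3 reached 0.174 in E4.0 cells and 0.209 in E3.5 cells, and 10 of its 40 cells were above 0.10.

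Ubb (chr11:62551171-62553213), which encodes polyubiquitin, and Aldoart1 (chr4:72850583-72852634), an aldolase gene that arose as a retrocopy, were the most one-sided. Ubb never passed 0.00249 in 23 E4.0 cells or 0.00115 in 17 E3.5 cells, at an RPRT of at least 581 in E4.0 cells and 799 in E3.5 cells. The ratio of Aldoart1 was 0 in all 17 E4.0 cells and all 13 E3.5 cells. Gm9199, a transcribed pseudogene in RefSeq, was at 0 in 29 of 30 cells. Gm6083 (chr5:29538153-29538509), a processed pseudogene, was at or below 0.0305 in E4.0 cells and at or below 0.0698 in E3.5 cells.

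The other 5 maternal genes serve transcription, transport and metabolism. Vps52, a subunit of the GARP complex that tethers vesicles returning to the Golgi, was at 0 in 20 of 22 cells. Ctr9, a subunit of the PAF1 complex that accompanies RNA polymerase II, was at or below 0.0778 in 11 E4.0 cells and reached 0.314 in 11 E3.5 cells. Gnpda1, a glucosamine-6-phosphate deaminase, was between 0 and 0.292 in 18 E4.0 cells and between 0 and 0.393 in 15 E3.5 cells, and it was above 0.10 in 12 of 33 cells.

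Ola1 and Zbed5 each had a cell on the paternal side. For Ola1, an Obg-like ATPase, the median was 0 at E4.0 and 0.0307 at E3.5, and the highest value was 0.929 in 21 E4.0 cells and 0.232 in 14 E3.5 cells. For Zbed5, a BED-type zinc finger gene, the highest value was 0.901 in 15 E4.0 cells and 0.039 in 8 E3.5 cells. Over all members, 6 ratios lay at the opposite end, 4 of them in E4.0 cells and 2 in E3.5 cells. A single E4.0 cell gave that of Mtap and that of Zbed5.

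The share of the transcript end that another gene resembles was then measured, since reads from a near-identical gene can be counted in the wrong place. This measure was chosen after the names of the members had been seen. The last 3000 bases of each transcript were compared with all GENCODE genes that do not overlap the gene itself. Stretches of 50 bases or more at 95% identity or more were counted. A transcript was available for 27 of the 29 members. At least 20% of the searched bases were covered in 10 of these 27 (37%), against 10.7% of 4021 remaining genes and 10.9% of all genes judged. By side, this held for 5 of 16 paternal and 5 of 11 maternal genes. Among 55 ribosomal protein genes judged, the share was 85.5%.

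The covered members were Gm6083 (100% of the bases), Mnd1 (94.2%), Ubb (77.8%), Gm9376 (64.2%), Gm6756 (63.2%), Morf4l1 (51.6%), Gnpda1 (47.4%), Rpl37 (41.3%), Pigp (41.3%) and Rps3 (30.03%). Zbed5 followed at 18.2% and Rps15a, searched by a transcript of 5179 bases, at 2.23%, and 15 members had no such stretch. Those without one were the imprinted genes Slc38a4 and Jade1, as well as Nptx1, Ly6a, Bend4, Atic, Pyy, Serinc3, Mtap, Tspan17, Gm4922, Vps52, Ctr9, Ola1 and Aldoart1.

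**Figure D3:**
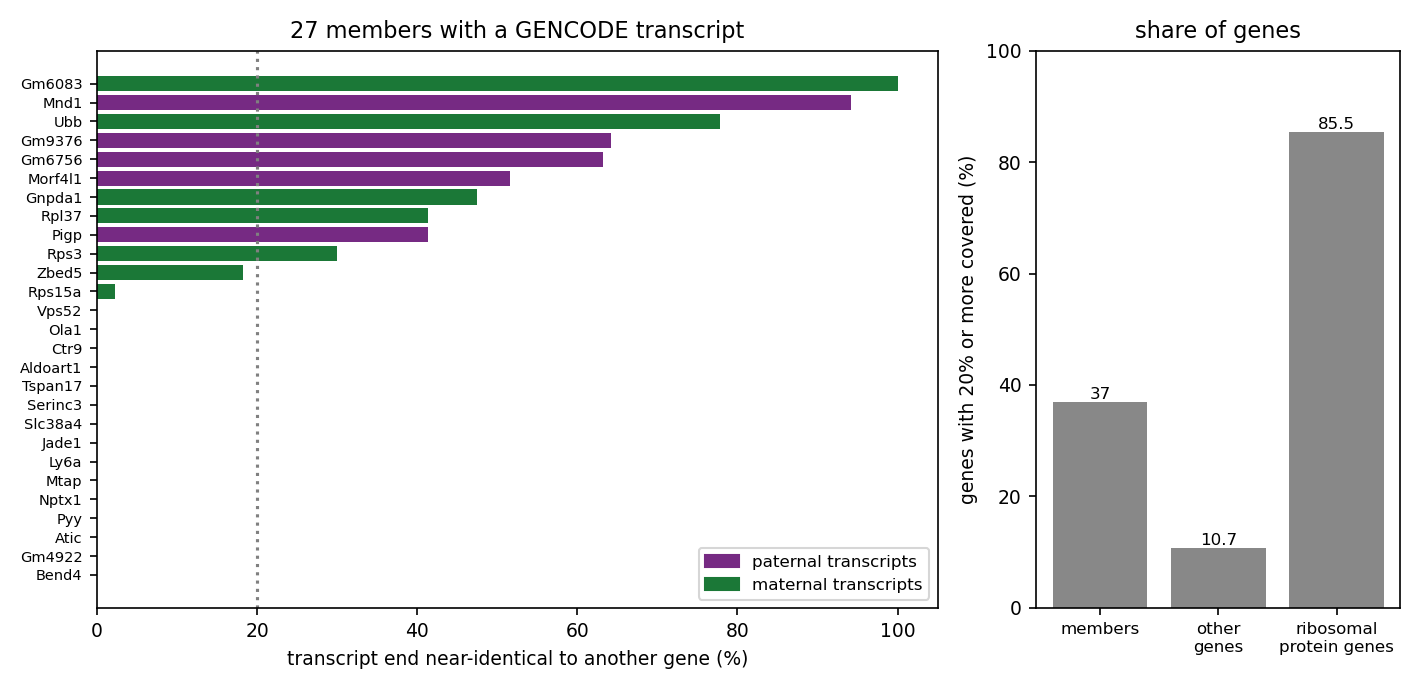
Left, percentage of the searched transcript end (up to the last 3000 bases) that is near-identical to another gene for 27 members, paternal in purple and maternal in green, with the 20% limit dotted; right, percentage of genes at or above that limit. It was 37% for the members, 10.7% for the remaining genes and 85.5% for ribosomal protein genes.

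Several near-identical genes had values of their own in the deposited data. Dppa5a, a pluripotency gene on chromosome 9, aligns with Gm6083 on chromosome 5 over 357 bases at 96.9% identity. In the same 40 cells the mean ratio was 0.0172 for Gm6083 and 0.351 for Dppa5a, and their ranges did not overlap (highest 0.0698 for Gm6083, lowest 0.224 for Dppa5a). Mean RPRT was 559.6 for Gm6083 and 2980 for Dppa5a, and the RPRT of both genes ran in parallel over cells (Spearman's rho 0.98 over 40 cells, which share library and normalization). An annotated transcript of Pigp (chr16:94358763-94371842) also shares a stretch of 239 bases with Gm6083. Pigp transcripts were paternal while those of Gm6083 were maternal, and their rho was 0.59. Gm15310, a transcribed processed pseudogene at chr16:94358941-94359312, lies within the positions of Pigp and aligns with Gm6083 over 325 bases at 96% identity. As it overlaps Pigp, it was not counted in the search for Pigp. Whether reads of Gm15310 were counted for Pigp was not tested.

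Aldoa was picked by its symbol as the source gene of Aldoart1. The search had found no stretch between them that reached its limits of length and identity, and similarity below these limits was not measured. Aldoa had a mean ratio of 0.544 in 40 cells, against 0 for Aldoart1 in 30 cells. Mean RPRT was 14.4 for Aldoart1 and 1016 for Aldoa, with a rho of 0.96 over 40 cells. Phgdh, a serine synthesis enzyme that Gm6756 resembles, had a mean ratio of 0.596 in 39 cells, against 0.997 for Gm6756 in 25 cells. Mean RPRT was 8.02 for Gm6756 and 193 for Phgdh, with a rho of 0.94 over 40 cells. In these pairs the member was one-sided while its more abundant relative was read from both copies. Some other relatives were less abundant than the member. Mnd1-ps had a mean RPRT of 8.69 against 38.0 for Mnd1, and Morf4l1-ps1 of 35.2 against 252 for Morf4l1. The rho over 40 cells was 0.98 in each of them. Mnd1-ps had no ratio, and Morf4l1-ps1 had a usable ratio in only 1 cell. Not all pairs ran so closely in parallel. Chchd2, which aligns with Zbed5 over 454 bases at 98.5% identity, had a rho of 0.72 with Zbed5. Its mean RPRT was 202 against 53.3 for Zbed5, and its mean ratio was 0.542 in 7 cells. The rho was 0.16 for Rps15a and Cep78, which share 67 bases.

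Gnpda1 and its near-identical pseudogene Gm8615 lay on opposite sides. The alignment spans 753 bases at 99.1% identity, and the mean ratio was 0.0915 for Gnpda1 in 33 cells and 0.825 for Gm8615 in 25 cells. Mean RPRT was 15.4 for Gnpda1 and 12.8 for Gm8615, with a rho of 0.89 over 40 cells. Rpl37rt, which matches Rpl37 at 99.7% identity over 344 bases, had a usable ratio in only 4 cells, and it was 0 in each. The rho of Rpl37 and Rpl37rt was 0.98 over 40 cells. Whether reads of the relatives contributed to the ratios of the members was not tested.

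**Figure D4:**
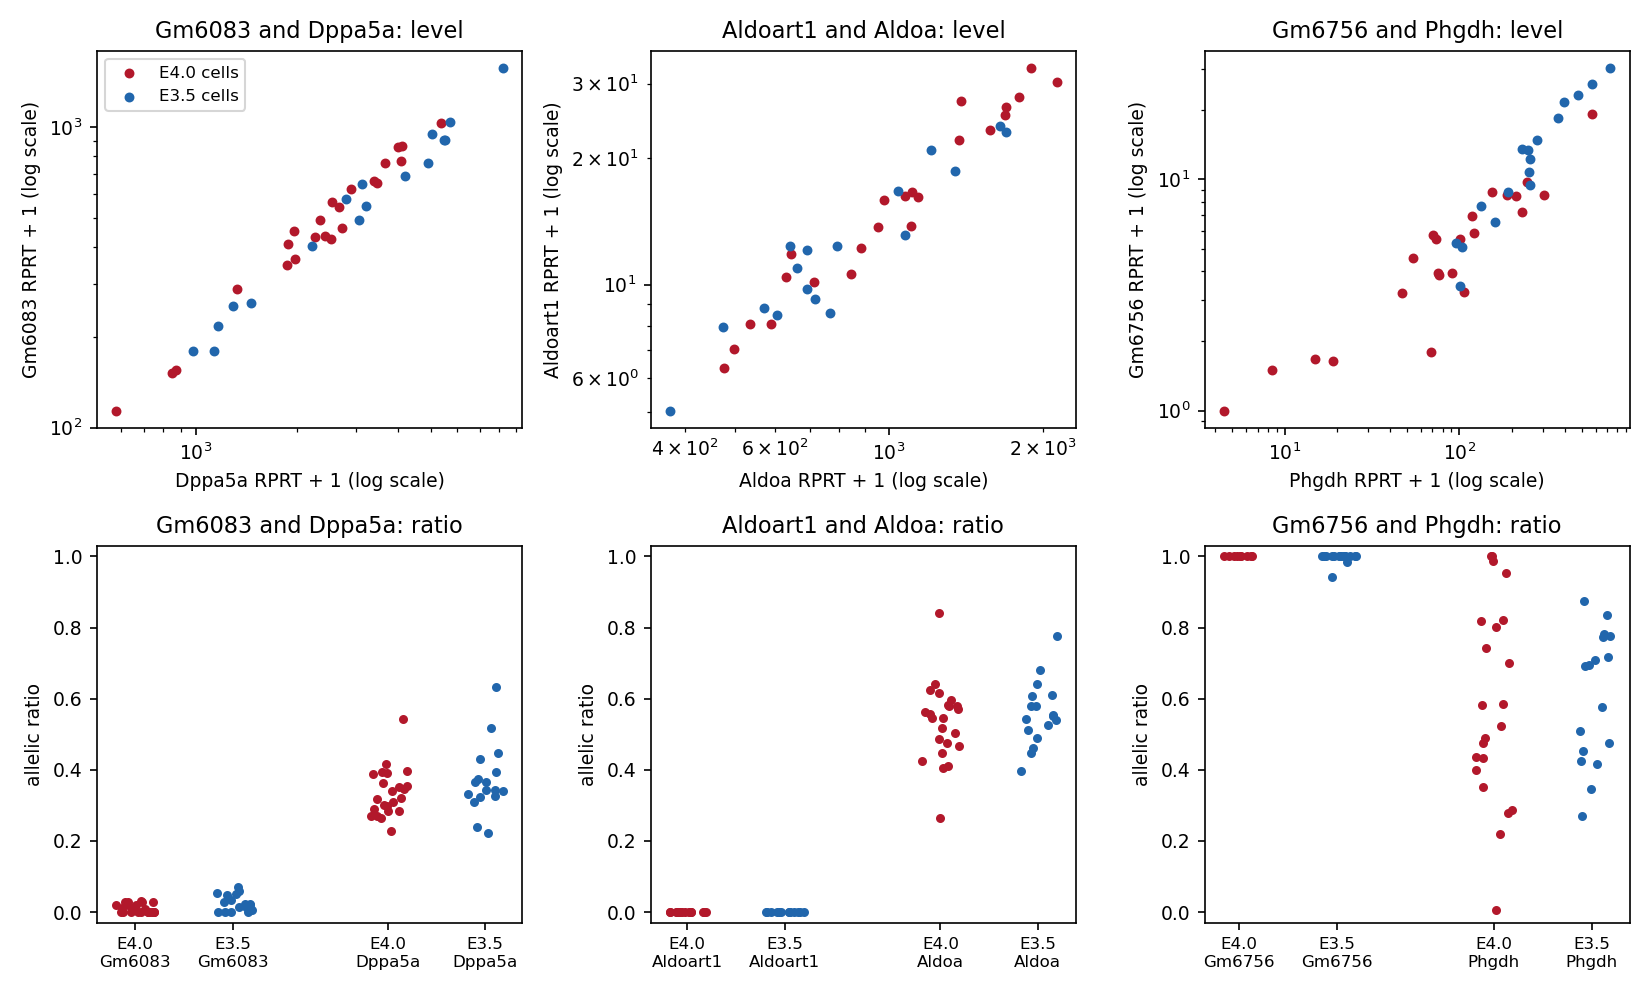
Top, RPRT + 1 (log scales) of Gm6083 against Dppa5a, Aldoart1 against Aldoa and Gm6756 against Phgdh in each of 40 cells; bottom, allelic ratio of each gene by stage, with E4.0 cells in red and E3.5 cells in blue. Gm6083 and Aldoart1 lie near 0 and Gm6756 near 1, while Dppa5a, Aldoa and Phgdh average 0.351, 0.544 and 0.596.

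By gene list, members were found among imprinted genes (2 of 7 judged), predicted genes and pseudogenes (6 of 90, of which 4 paternal and 2 maternal) and ribosomal protein genes (3 of 55, all maternal). The ribosomal list was taken by symbol and held 3 more genes, for kinases and a binding protein. No member was found among 50 zinc finger genes with a symbol of the Zfp, Zkscan or Zscan type, a list that does not hold Zbed5 or Jade1, or among 3 oocyte genes. The other 18 members came from 3932 genes on none of the lists, which is 0.458%, against 5.29% (11 of 208) for genes on any list. Of the 5 imprinted genes judged that were not members, Gnas (0.203) and H13 (0.268) had a mean ratio on the maternal side, and Nap1l4 (0.544), Tssc4 (0.529) and Trappc9 (0.638) were closer to balance.

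The members were scattered over the genome. They lay on 15 of 19 autosomes with at most 4 on a chromosome, and no pair was within 1 Mb. The closest pair, Gm6756 and Gnpda1, was 1.41 Mb apart and on opposite sides. Other genes within 500 kb had a median mean ratio of 0.482 for 51 genes near paternal members (between 0.301 and 0.796) and 0.464 for 41 genes near maternal members (between 0.281 and 0.762). No neighbour passed either limit, but only genes that could be judged were counted as neighbours. Morf4l1, Jade1, Mtap, Gm4922, Ola1 and Aldoart1 had no such neighbour.

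Cells were next grouped by expression, with the members and the sex chromosomes left out of the clustering. Of 4 clusters, a TE-like cluster held 3 E3.5 cells (median Krt8 6452 CPM, counts relative to the library total) and a PrE-like cluster held 13 E4.0 and 3 E3.5 cells (median Gata4 401 CPM). Epiblast markers were the highest list in the 2 other clusters, of 10 E4.0 cells (median Nanog 568 CPM) and of 11 E3.5 cells (median Nanog 338 CPM). Gata6, a primitive endoderm marker, had a median of 0.201 CPM in that E4.0 cluster and of 52.4 CPM in that E3.5 cluster, so the 11 E3.5 cells are called by their stage only.

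One-sided transcripts were seen in each cluster. Mean ratios of paternal genes were at or above 0.90 for 16 of 17 genes in the PrE-like cluster, 14 of 16 in the Epi-like E4.0 cluster, 16 of 17 in the E3.5 cluster and 13 of 15 in the TE-like cluster. Those of maternal genes were at or below 0.10 for 10 of 12, 12 of 12, 11 of 12 and 11 of 11 genes in the same order. The exceptions were Mtap, Gm4922, Tspan17 (in both clusters with the highest epiblast markers), Mnd1 and 2610524H06Rik on the paternal side, and Ola1, Zbed5 and Gnpda1 on the maternal side. In the TE-like cluster every mean, such as those of Mnd1 (0.667) and of 2610524H06Rik (0.515), rested on 3 cells or fewer. Those of Ola1, Zbed5, Ctr9, Vps52, Gnpda1, Mtap and Pyy rested on 1 cell each there. The mean of Tspan17 in the Epi-like E4.0 cluster (0.673) rested on 3 cells. Since the clusters are made of the cells that chose the members, this describes their spread only.

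Levels at E4.0 and E3.5 were compared on the summed counts of each stage, in CPM after TMM scaling. Intervals are exact 95% Poisson intervals and cover counting error only. The sum was at least 2-fold higher at E4.0 for 2 of 29 members and at least 2-fold lower for 4, where 9.57% of all genes judged were higher and 7.73% lower. Scaled by total count alone, the same numbers of members were called, and 7.68% of all genes judged were higher and 9.90% lower. The median log2 fold of E4.0 over E3.5 was 0.02 for the members and 0.11 for all genes judged.

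Nptx1 had the highest ratio of levels, with 79.3 CPM (78.0 to 80.6) at E4.0 and 18.3 CPM (17.65 to 18.98) at E3.5, a fold of 4.33. Its RPRT had a lowest value of 0, a median of 22.6 and a highest value of 80.1 in E4.0 cells, and of 0, 0.162 and 61.0 in E3.5 cells. The ranges overlapped, and 17 of 23 E4.0 cells passed an RPRT of 4, against 5 of 17 E3.5 cells. Mtap summed to 71.5 CPM at E4.0 and 28.6 CPM at E3.5 (2.50-fold).

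Gm9376 had the lowest ratio of levels, with 7.68 CPM (7.28 to 8.10) at E4.0 and 93.4 CPM (91.9 to 94.9) at E3.5, a fold of 0.0822. Its RPRT ran between 0 and 66.9 with a median of 9.49 in E4.0 cells, and between 52.7 and 730 with a median of 170 in E3.5 cells, so that the ranges overlapped only between 52.7 and 66.9. Without the 6 E3.5 cells deposited before, the fold was 0.107. The ratio of Gm9376 was at 0.997 or above at both stages.

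The other members at least 2-fold lower in their sum were Gm6756 (7.46 CPM at E4.0, 20.02 CPM at E3.5), Rps15a (219.6 and 530.9 CPM at E4.0 and E3.5) and Rpl37 (132.9 and 295.1 CPM at E4.0 and E3.5). By the median RPRT over cells, the fold of E4.0 over E3.5 was 0.523 for Rpl37, short of the limit, and 0.101 for Tspan17, whose sums were 34.2 CPM at E4.0 and 44.2 CPM at E3.5. Rps3, the third ribosomal member, had 5487 CPM at E4.0 and 5417 CPM at E3.5. Sums can rest on few cells. For Pyy, which had 63.4 CPM at E4.0 and 86.4 CPM at E3.5, a single E3.5 cell held 78.4% of the count of its stage, and its RPRT reached 2276 there against a median of 7.17. Stage sums also pool clusters of unlike level. The median RPRT of Pyy was 178 in the PrE-like cluster, where 16 of 16 cells passed 4, 0.475 in the Epi-like E4.0 cluster, where 0 of 10 cells did, 2.70 in the cluster of 11 E3.5 cells and 7.17 in the TE-like cluster. Leaving out the 6 cells deposited before, 5 members instead of 2 were at least 2-fold higher, where 10.1% of all genes judged were, with Mnd1 (2.24), Gm9199 (2.17) and Jade1 (2.08) joining Nptx1 (3.604) and Mtap (2.61). The published E3.5 cells that the paper added were of trophectoderm and inner cell mass. Leaving cells out can therefore also change the mix of cell types in the E3.5 sum.

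**Figure D5:**
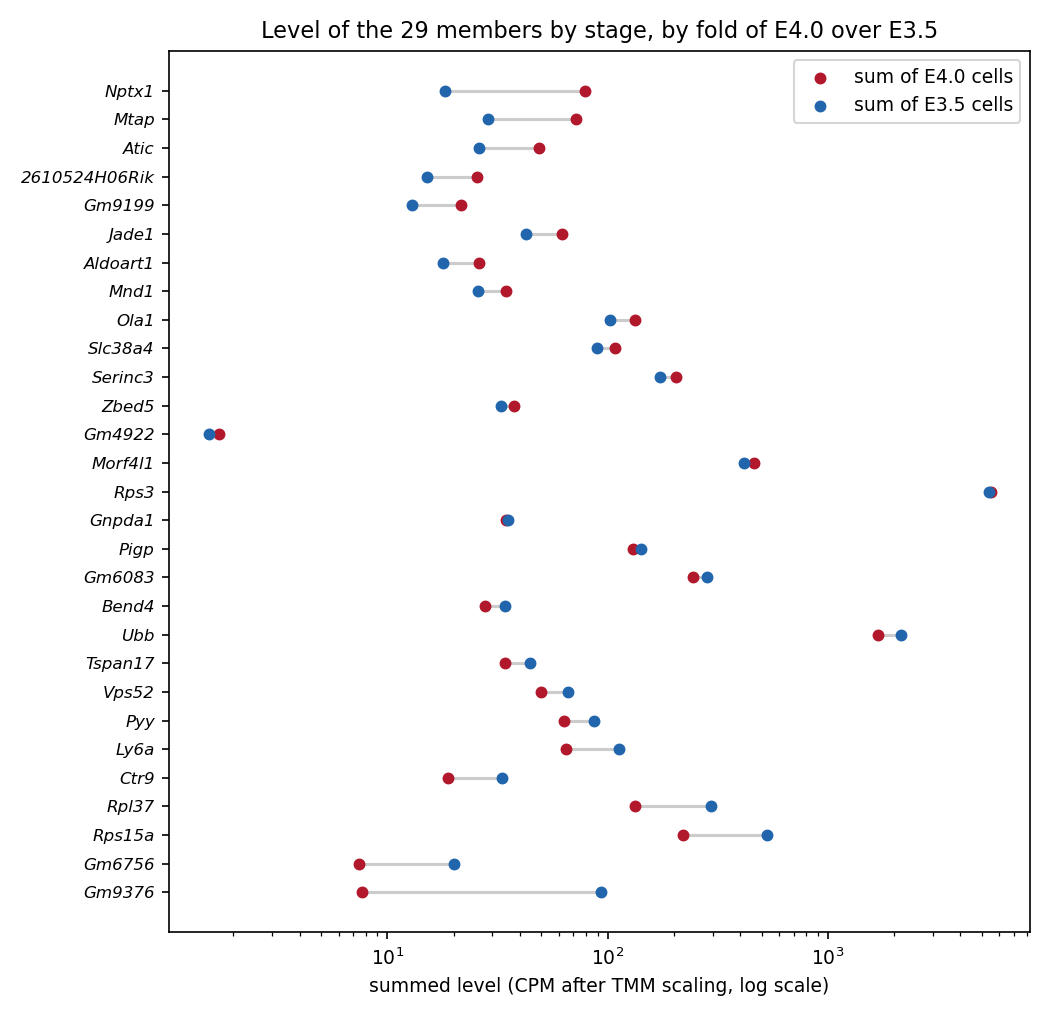
Summed level in CPM (log scale) of each of the 29 members in E4.0 cells (red) and E3.5 cells (blue), ordered by the fold of E4.0 over E3.5. Nptx1 and Mtap at the top are over 2-fold higher at E4.0, and Rpl37, Rps15a, Gm6756 and Gm9376 at the bottom over 2-fold lower.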

How the data were processed

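The 3 deposited tables cover the same 40 cells. Reads had been aligned to mm10 with TopHat2 2.1.0, and the counts (24499 genes), from HTSeq 0.6.1, were deposited by the authors without normalization. The deposited allelic ratio is a fraction, made by the authors from reads over variants between both strains after alignment to reconstructed genomes of both. It came without read counts, so no interval is given. Its depth in a cell is unknown beyond the minimum number of reads that the paper sets. RPRT is a signal that the authors normalized to retrotranscribed length and depth (17280 genes). No cells had identical values.

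Ratios were filtered and averaged as the report states, in Python 3.11.15 with pandas 2.3.3. Members, lists and limits were chosen with earlier results of these data known, and every member is named. Stage sums were scaled with TMM (edgeR 4.0.16, R 4.3.3), with size factors of DESeq2 1.42.0 as an alternative, and a gene needed a mean of 1 CPM. Cells were clustered on log2(CPM + 1) of the 1000 most variable genes by Ward linkage. Transcript ends were searched with blastn 2.17.0 against GENCODE transcripts on GRCm38, the build that mm10 denotes. The rule was tested on simulated data with less spread over cells than the real data, which checks its code only. The labels name no embryo or lineage, so no test between groups was made. Alternatives changed the limits on ratio, RPRT and number of cells, the average, the cells and the scaling.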

Additional observations from a re-analysis of the deposited data

How the results depend on the processing

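The number of genes past the limits depends on how they are chosen. With a minimum of 10 cells there were 44 paternal and 53 maternal genes (1.56% of 6213 judged), and with the median over cells in place of the mean 86 and 87 (4.18% of 4140), all 29 members among them in both settings. A minimum of 30 cells left 7 paternal genes, limits of 0.95 and 0.05 left 10 paternal genes, and limits of 0.85 and 0.15 gave 21 maternal genes. With E4.0 cells alone or with E3.5 cells alone, at a minimum of 10 cells, there were 20 maternal genes each, 11 members with E4.0 and 10 with E3.5 cells, and 20 paternal genes each, 13 of them members. Leaving out predicted genes, pseudogenes and ribosomal protein genes left 7 maternal genes. The other planned settings stayed within 1.5 times of the 17 paternal and 12 maternal genes, but 9 of 203 recomputed mean ratios, in 7 members, no longer passed the limit. They were Tspan17 with each stage weighted equally (0.8997), without cells under 4000000 counts (0.896) and in E4.0 cells (0.888), Mtap (0.871), Gm4922 (0.877) and Zbed5 (0.138) in E4.0 cells, and Mnd1 (0.883), 2610524H06Rik (0.875) and Gnpda1 (0.117) in E3.5 cells. The count of members at least 2-fold higher at E4.0 was 2 in the other scalings and 4 with the median RPRT (10.8% of all genes judged), where Mtap (1.73-fold) was not among them and 2610524H06Rik (2.71), Gm9199 (2.24) and Jade1 (2.16) were.

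Further settings were chosen after seeing the data. Without predicted genes, pseudogenes and genes with 20% or more of the transcript end near-identical to another gene, 10 paternal and 6 maternal genes were left. The 6 maternal genes were Zbed5, Rps15a, Aldoart1, Ctr9, Vps52 and Ola1. Of these, Aldoart1 is a retrocopy, and Zbed5 (18.2%) and Rps15a (2.23%) had shares below the limit. Without the 6 E3.5 cells deposited before, 11 paternal and 9 maternal genes were left, because 8 members then had fewer than 20 cells and because Mtap (0.89998), Tspan17 (0.881) and Zbed5 (0.111) no longer passed the limits, and 5 members were at least 2-fold higher at E4.0. No paired analysis was made, because no test was made and the embryo of each cell was not used.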
